A study of Mus musculus with 24 samples.

Results

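Peroxisomes are small organelles that shorten very long, branched and dicarboxylic fatty acids by beta- and alpha-oxidation, make the first intermediates of ether lipids and break down the hydrogen peroxide that their oxidases release. Peroxins, the products of the Pex genes, insert their membrane proteins and import their enzymes from the cytosol. In the kidney they are most abundant in the proximal tubule, a segment that lives largely on fatty acid oxidation. Here 43 genes listed with this organelle were followed in the kidneys of mice that express mutant uromodulin. These 25 enzymes, 6 membrane proteins and 12 peroxins include Acot12, which is usually described as cytosolic. They were taken by symbol from the probes of the array, a probe counting as expressed where its signal differed from the negative controls at a detection p under 0.01 on at least 1 of 24 arrays. Of the 43 genes, 39 had an expressed probe (22 enzymes, 5 membrane proteins and all 12 peroxins), out of 10378 expressed and 18766 named genes on the array. Phyh and Crot, enzymes of alpha-oxidation and of carnitine transfer, and Abcd2, a fatty acyl-CoA transporter, had probes that were below detection on every array, and no probe was named for Prdx5, a peroxidase. Where a gene had several expressed probes, as 18 of the 39 did, its value is that of its brightest probe.

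RNA of whole kidneys came from 24 mice, each measured on its own array (the Illumina MouseWG-6 v2.0 design). All mice were of the FVB strain and all carried a Umod transgene. TgUmodC147W mice express uromodulin with the mutation named in the line, TgUmodwt mice the wild type protein, both with an HA tag and from a fragment of the Umod promoter, which is active in cells of the thick ascending limb (TAL). Both genotypes were studied at 1 month in males (M1) and females (F1) and at 2 months in females (F2), which makes 6 groups of 4 mice. The comparison is therefore between mutant and wild type transgenic uromodulin, made in a distal segment of the tubule. In such bulk RNA, fewer cells of a type and less RNA per cell cannot be told apart. The labels call the arrays biological replicates, so that the p-values measure the spread between mice.

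Markers of the proximal tubule and the TAL were both present, with 16 of 16 and 8 of 8 genes that had a named probe expressed in males. Of 45281 probes, 35.3 to 39.6% were detected per array, and array medians lay between 114.6 and 176.6 before normalization. All arrays of 2 months, at 139.7 or more, lay above all arrays of 1 month, at 136.7 or less. Xist, by which female cells silence an X chromosome, was at background on 1 of 16 female arrays, TgUmodC147W F1 replicate 2, where its probes measured 4.80 to 5.19 on the log2 scale against 9.00 to 12.74 on the other 15. The Y-linked Kdm5d was at background there too, at 4.85 against 6.45 to 7.50 on the 8 male arrays. That array was kept. Without it, the calls of the 39 genes that ended are named below, and so are the counts of the other lists in F1. Levels below are normalised log2 signals, and a log2 fold change is TgUmodC147W over TgUmodwt unless another order is named. A gene is called where limma's p, adjusted by Benjamini-Hochberg over all probes tested in the comparison, is under 0.05.

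The first question was how peroxisomal genes differed between the genotypes in males of 1 month. The listed enzymes were lower in mutant males, with 13 of 22 called lower and 1 higher. Of the peroxins 5 of 12 and of the membrane proteins 1 of 5 were called lower. In all, 19 of 39 peroxisomal genes (48.7%) were lower and 1 (2.56%) was higher, where 15.4% of the 10130 genes tested were called lower and 21.9% higher. Of the 39, 38 had a brightest probe detected on all 24 arrays. The shares over all genes, here and below, were not matched to them for signal. Amacr, which entered the test only through the control males, had to be lower. Without it the counts are 12 of 21 enzymes and 18 of 38 genes (47.4%) lower. The median log2 fold change was -0.48 over the enzymes without it (-0.56 with it, -0.47 with it at its bound) and -0.20 over the peroxins, against 0.04 over all genes tested. Scaling each array to a common median, which put the median of all expressed probes at 0.11 in this comparison and at 0.15 in the age comparison of TgUmodwt females, left 13 enzymes called lower and reduced the peroxins to 3 lower and 1 higher.

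**Figure D1:**
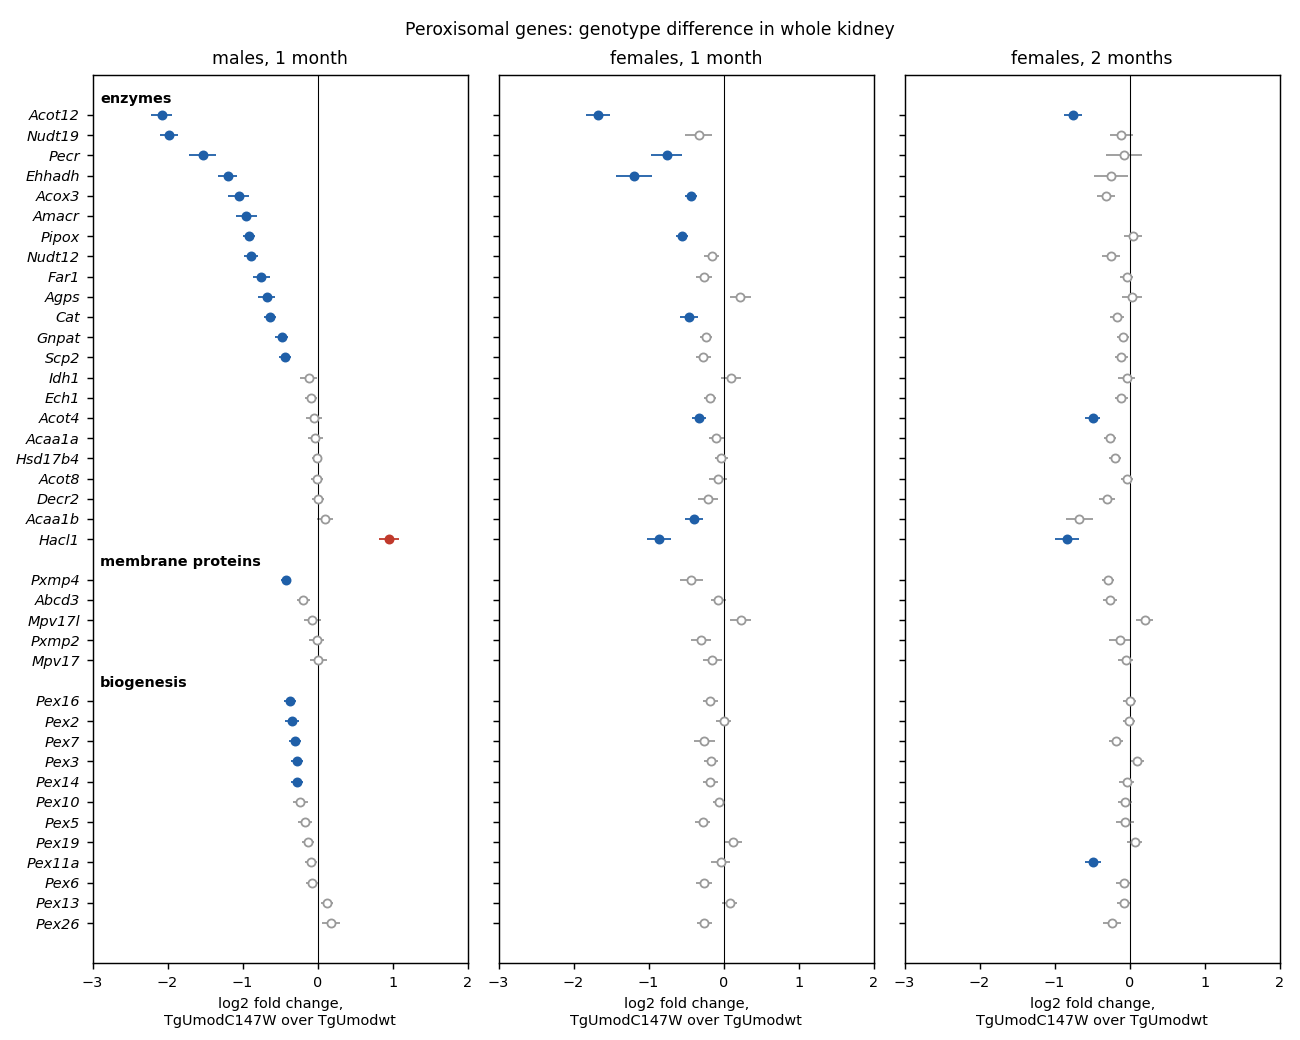
Genotype differences of the 39 measured peroxisomal genes, 1 per line, grouped as enzymes, membrane proteins and biogenesis genes (peroxins), in 1 panel for each of M1, F1 and F2. The horizontal axis is the log2 fold change of TgUmodC147W over TgUmodwt with bars of 1 SE (n = 4 mice per group), and filled symbols passed the test (blue lower, red higher), numbering 20 in M1, 9 in F1 and 4 in F2. Amacr was tested in M1 only, and its point there is the fitted value and not the bound of the text.

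Acot12, an acetyl-CoA thioesterase usually described as cytosolic, was the 1 gene of the 39 called lower in mutant mice in all 3 comparisons. In males of 1 month it measured 11.25, 11.05, 10.74 and 11.11 in TgUmodwt and 9.09, 9.21, 8.61 and 8.94 in TgUmodC147W mice. The groups did not overlap, and the level was 4.21-fold lower (log2 fold change -2.08 ± 0.14 SE, limma, adjusted p = 2.05e-06). In females of 1 month the values were 10.07, 10.21, 10.25 and 10.36 against 8.71, 8.17, 8.33 and 8.99, again without overlap and 3.18-fold lower (limma, adjusted p = 0.000286). In females of 2 months they were 10.31, 10.43, 10.39 and 10.43 against 9.81, 9.84, 9.28 and 9.62, which is 1.69-fold lower (limma, adjusted p = 0.00436). Every mutant kidney thus lay below every age- and sex-matched control, by a smaller margin in the older females. Without the array at background for Xist the F1 log2 fold change was -1.54 (limma, adjusted p = 0.000636).

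Among the enzymes of beta-oxidation Ehhadh, Acox3, Pecr and Scp2 were called lower in males, Amacr was detected in control males alone, and the others measured, named further below, were not called. Ehhadh, the bifunctional enzyme that hydrates and dehydrogenates enoyl-CoAs, measured 11.31, 11.26, 11.35 and 11.24 in control and 10.29, 10.15, 9.66 and 10.24 in mutant males, a 2.30-fold difference with no overlap (limma, adjusted p = 4.9e-05). Acox3, the oxidase that begins the breakdown of branched acyl-CoAs, measured 11.99, 12.04, 12.23 and 12.06 against 11.09, 10.63, 11.43 and 10.98. It was 2.07-fold lower with no overlap (limma, adjusted p = 0.000282), and its dimmer probe gave a log2 fold change of -1.25 (adjusted p = 4.44e-05). Pecr, a trans-2-enoyl-CoA reductase, measured 10.92, 10.72, 10.91 and 10.92 in control males and 9.54, 9.55, 8.69 and 9.56 in mutant males. It was 2.89-fold lower (limma, adjusted p = 8.95e-05), and mutant replicate 3 lay well under the other mutant males. Amacr, the racemase that readies 2-methyl-branched acyl-CoAs for oxidation, was detected on 3 of 4 control male arrays and on no mutant male array, so that its level was at least 1.38-fold lower. It was not detected on any female array either, so that it was tested only because the control males were high, and its difference is given as a description. That bound sets the control mean of 6.78 against a floor of 6.32, the mean over mutant arrays of the higher of the probe's own signal and the lowest signal of a detected probe. Scp2, whose longer product is the thiolase of the branched-chain route, was 1.35-fold lower (limma, adjusted p = 0.00112).

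For the remaining enzymes of this pathway no difference was called in males. The thiolases Acaa1a and Acaa1b, Hsd17b4, the multifunctional enzyme of the branched-chain route, the auxiliary enzymes Ech1 and Decr2, the thioesterases Acot4 and Acot8, and Idh1, a source of NADPH in peroxisomes and cytosol, had log2 fold changes from -0.12 in Idh1 to 0.10 in Acaa1b. Their adjusted p ran from 0.409 to 0.959 (limma). A p that misses the threshold does not show equal levels.

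Enzymes outside fatty acid breakdown were also among those lower in mutant males. Nudt19, a diphosphatase that cleaves coenzyme A and is known from mouse kidney, measured 14.85, 14.67, 14.49 and 14.85 in control and 12.45, 12.68, 12.84 and 12.97 in mutant males, 3.95-fold lower with no overlap (limma, adjusted p = 1.11e-06). Its other expressed probe gave a log2 fold change of -1.92. Nudt12, which cleaves NADH, measured 9.72, 9.85, 9.73 and 9.71 against 8.87, 8.64, 8.96 and 8.98, 1.85-fold lower (limma, adjusted p = 4.26e-05). The groups did not overlap. Agps, Far1 and Gnpat, which together build the first ether lipid intermediates, were 1.60-, 1.69- and 1.40-fold lower (limma, adjusted p = 0.00095, 0.000341 and 0.00213). For Agps the control males measured 12.65, 12.50, 12.38 and 12.72 and the mutant males 11.64, 11.82, 11.97 and 12.09. Pipox, the oxidase of sarcosine and pipecolate, was 1.89-fold lower (limma, adjusted p = 1.27e-05). Cat, catalase, measured 12.49, 12.50, 12.60 and 12.37 in control and 11.82, 11.83, 11.95 and 11.84 in mutant males, 1.55-fold lower (limma, adjusted p = 0.000156). In Agps and Cat, too, every mutant male lay below every control male.

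Hacl1, the lyase that splits 2-hydroxyacyl-CoAs in alpha-oxidation, went the other way in males. It measured 7.94, 8.17, 8.46 and 8.15 in control and 9.07, 8.87, 9.36 and 9.20 in mutant males. All mutant males lay above all controls, by 1.93-fold (limma, adjusted p = 0.000269), and it was the 1 peroxisomal gene of the 39 called higher.

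Differences among the biogenesis genes were smaller than among the enzymes. Pex16 and Pex3, which with Pex19 insert membrane proteins, were 1.29- and 1.21-fold lower in mutant males (limma, adjusted p = 0.00525 and 0.0245). Pex14, part of the docking site for imported enzymes, and Pex7, the receptor for enzymes with an N-terminal signal, were 1.22- and 1.23-fold lower, and Pex2, a ubiquitin ligase of the import machinery, was 1.27-fold lower (limma, adjusted p = 0.0186, 0.0137 and 0.0131). The other 7 peroxins were not called, with log2 fold changes from -0.23 in Pex10 to 0.18 in Pex26. Of the membrane proteins, Pxmp4 was 1.33-fold lower (limma, adjusted p = 0.0012), whereas Abcd3, a transporter of fatty acyl-CoAs, Pxmp2, a pore of the membrane, Mpv17 and Mpv17l lay between -0.19 and 0.01.

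In females of 1 month the same comparison called 9 of 38 peroxisomal genes lower (23.7%) and 0 higher, where 7.62% of 9971 genes tested were lower and 10.4% higher. All 9 were enzymes, and no peroxin or membrane protein was called by limma, although 3 peroxins and 2 membrane proteins were lower at an unadjusted p under 0.05. The median log2 fold change was -0.27 over 21 enzymes and -0.17 over the peroxins, against 0.01 over all genes, and 32 of the 38 values were below 0 compared with 48.6% of all genes. The count fell to 5 when TgUmodC147W replicate 1, 2 or 3 was left out, and replicate 2 is the array at background for Xist. Without replicate 2 the genes called were Acot12, Acox3, Ehhadh, Hacl1 and Pipox.

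Ehhadh in these females measured 10.94, 11.33, 11.16 and 11.42 in control and 10.00, 9.77, 9.48 and 10.80 in mutant mice. It was 2.30-fold lower (limma, adjusted p = 0.0079), with mutant replicate 4 close under the lowest control, and the log2 fold change was -1.12 without the array at background for Xist (adjusted p = 0.0263). Acox3 measured 11.29, 11.22, 11.15 and 11.23 against 10.86, 10.71, 10.81 and 10.76, 1.35-fold lower with no overlap (limma, adjusted p = 0.0049; without that array 0.0185). Hacl1, higher in mutant males, was lower in mutant females. It measured 9.69, 9.53, 9.90 and 10.20 in control and 9.24, 8.71, 8.86 and 9.07 in mutant females, 1.81-fold lower without overlap (limma, adjusted p = 0.00538; without that array 0.0178). Pipox was 1.47-fold lower (limma, adjusted p = 0.00208; without that array 0.00673).

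The other 4 calls of this age were lost without the array at background for Xist. Pecr measured 9.76, 9.87, 10.21 and 10.37 in control and 8.95, 9.06, 9.23 and 9.92 in mutant females, 1.69-fold lower (limma, adjusted p = 0.0328; without that array 0.0907). Its mutant replicate 4 lay within the control range. Cat measured 12.52, 12.33, 12.14 and 12.24 against 11.85, 11.67, 11.78 and 12.12, 1.37-fold lower (limma, adjusted p = 0.0258; without that array 0.0753). Acaa1b, a thiolase, measured 14.05, 13.84, 14.15 and 14.18 against 13.76, 13.41, 13.69 and 13.81, 1.31-fold lower (limma, adjusted p = 0.0455; without that array 0.115). In Cat and Acaa1b the groups did not overlap, though the gap was narrow. Acot4, a thioesterase for dicarboxylic acyl-CoAs in mouse peroxisomes, was 1.26-fold lower (limma, adjusted p = 0.032, and 0.0879 without that array). Pecr, Cat and Acaa1b also lost their calls when 1 of several other arrays was left out. Without TgUmodC147W replicate 1, for instance, their adjusted p were 0.0848, 0.0559 and 0.064 (limma). The call of Acot4 was also lost with the replicate number as a block (limma, adjusted p = 0.0793).

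Genes with some of the largest differences in males were not called in females of 1 month. Nudt19 measured 12.71, 13.03, 13.05 and 12.95 in control and 12.48, 12.36, 12.35 and 13.22 in mutant females (limma, adjusted p = 0.256), so that mutant replicate 4 exceeded every control. Nudt12 measured 9.29, 9.11, 9.06 and 9.25 against 9.02, 9.03, 9.17 and 8.87 (limma, adjusted p = 0.314). Agps measured 11.61, 11.65, 11.53 and 12.14 against 12.05, 11.95, 11.71 and 12.09 (limma, adjusted p = 0.349). In all 3 genes the groups overlapped.

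In females of 2 months 4 of 38 peroxisomal genes were called lower (10.5%) and 0 higher (limma, also 0 at an unadjusted p under 0.05), where 3.05% of 9850 genes tested were lower and 5.42% higher. The 4 were Acot12, Hacl1, Acot4 and the peroxin Pex11a. The median log2 fold change was -0.17 over the enzymes and -0.06 over the peroxins, against -0.01 over all genes. The count was 2 without TgUmodC147W replicate 3 and 7 with the authors' value table, without background correction, with scaling to the median or with a trended and robust variance prior.

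Hacl1 measured 10.29, 10.09, 10.16 and 9.95 in control and 9.29, 9.77, 9.06 and 9.01 in mutant females of 2 months, 1.79-fold lower with no overlap (limma, adjusted p = 0.00906). Acot4 was 1.40-fold lower (limma, adjusted p = 0.0162). Pex11a, a membrane protein tied to the proliferation of peroxisomes, measured 11.74, 11.65, 11.97 and 11.92 against 11.52, 11.17, 11.23 and 11.40, 1.41-fold lower (limma, adjusted p = 0.0207). The groups did not overlap. Of the 3 dimmer probes of the gene 2 gave log2 fold changes of -0.60 and -0.62 (limma, adjusted p = 0.01 and 0.00693) and the third -0.37, which was not called (adjusted p = 0.191). The call was lost without control replicate 3 or 4 or mutant replicate 3 (adjusted p = 0.0675, 0.055 and 0.0701). At 1 month Pex11a measured 11.75, 11.61, 11.59 and 11.73 against 11.58, 11.46, 11.64 and 11.63 in males and 11.63, 11.58, 11.83 and 11.77 against 11.52, 11.75, 11.41 and 11.96 in females (limma, adjusted p = 0.407 and 0.865). In both sexes the groups overlapped, and the dimmer probe not called at 2 months was called lower in males (log2 fold change -0.28, limma, adjusted p = 0.0229).

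Ehhadh and Pecr were not called at 2 months, and the same mutant mouse measured highest in both. Neither value was far from the other 3 by Dixon's criterion, which is used further below. Ehhadh measured 11.79, 11.58, 11.78 and 11.41 in control and 11.21, 12.20, 11.20 and 10.95 in mutant mice (log2 fold change -0.25 ± 0.23 SE, limma, adjusted p = 0.587), and mutant replicate 2 was the highest of the 24 arrays. Without it the log2 fold change was -0.52 (limma, adjusted p = 0.028). Pecr measured 10.24, 10.10, 10.34 and 10.34 against 10.02, 11.04, 9.97 and 9.66 (log2 fold change -0.08 ± 0.24 SE, limma, adjusted p = 0.89; without that mouse -0.37, adjusted p = 0.0788). The same mouse was the highest of all 24 in Pecr as well.

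Acox3 measured 11.46, 11.58, 11.21 and 11.55 in control and 11.44, 11.02, 11.09 and 11.02 in mutant females of 2 months (log2 fold change -0.31 ± 0.12 SE, limma, adjusted p = 0.176), with 1 mutant within the control range. Acaa1b measured 14.03, 14.54, 14.57 and 14.35 against 13.88, 13.23, 13.58 and 14.12, and missed the threshold (limma, adjusted p = 0.0514). Here, too, the groups overlapped by 1 mouse. Cat measured 12.34, 12.59, 12.66 and 12.58 against 12.33, 12.48, 12.36 and 12.31 (limma, adjusted p = 0.317), Nudt19 13.16, 12.87, 13.38 and 13.63 against 13.29, 12.92, 13.21 and 13.17 (adjusted p = 0.739). Nudt12 measured 9.33, 9.49, 9.42 and 9.45 against 9.49, 9.28, 8.93 and 8.98 (limma, adjusted p = 0.274). Each of these 3 genes had overlapping groups.

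**Figure D2:**
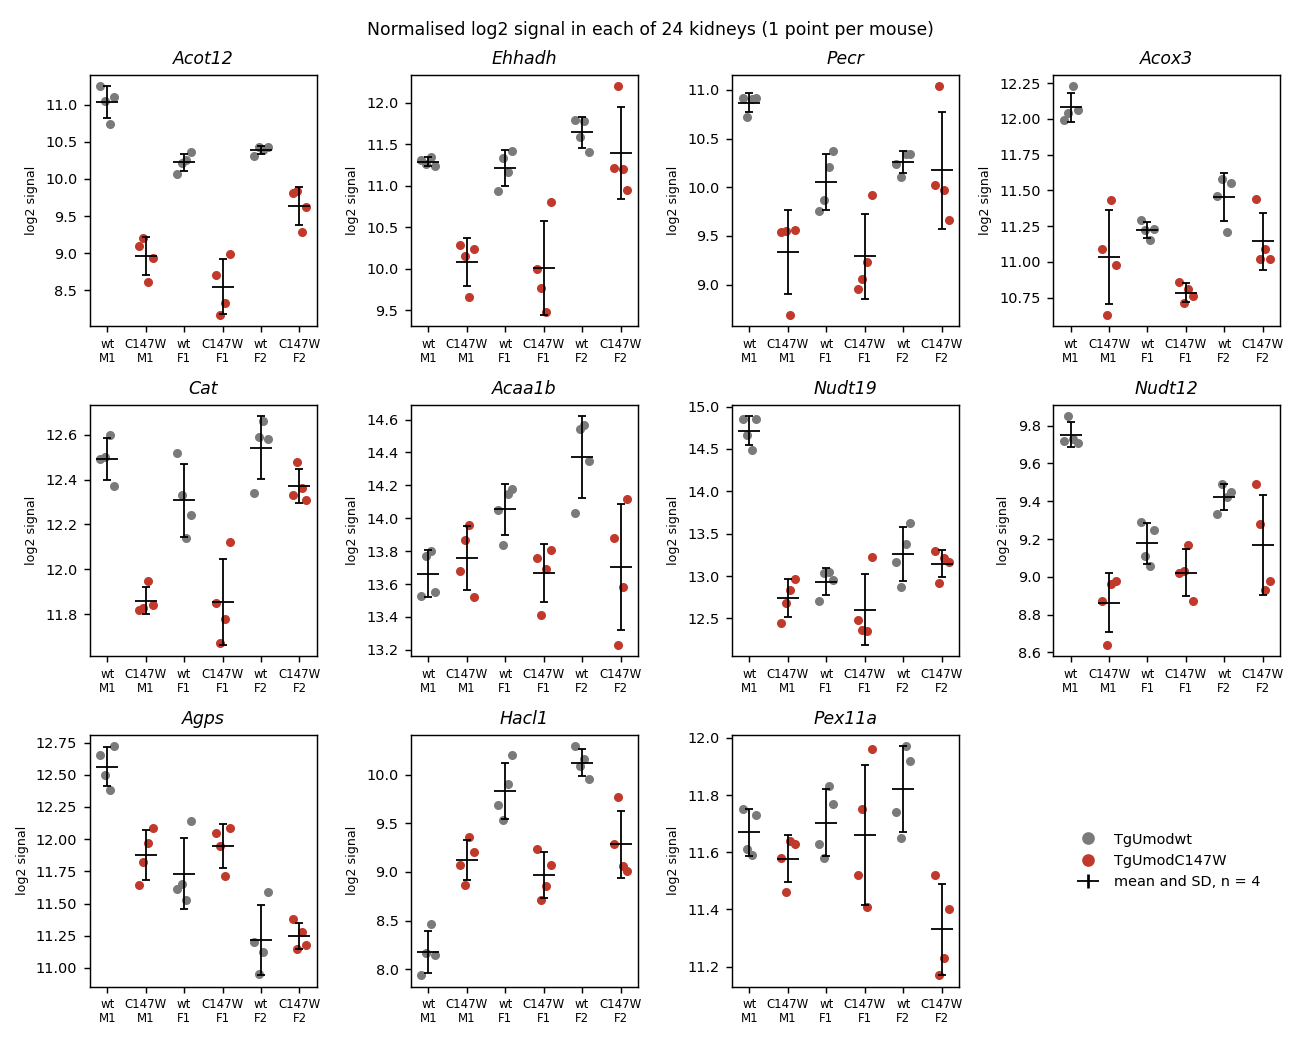
Normalised log2 signal (vertical axes) of 11 peroxisomal genes in each kidney, in the 6 groups of mice (horizontal axes; wt, TgUmodwt; C147W, TgUmodC147W; M1, F1 and F2 as in the text), with 1 point per mouse and black bars for the mean and SD of 4 mice. Acot12 is lower in every mutant group, Nudt19 is high only in the control males, at 14.49 to 14.85, and Hacl1 is low in the control males, at 7.94 to 8.46.

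The interval from 1 to 2 months was followed in females within each genotype, comparisons that share their groups with the genotype comparisons. All arrays of 2 months were brighter before normalization than those of 1 month. Any such difference that normalization left cannot be told apart from age. In TgUmodwt females limma called 0 of 38 peroxisomal genes lower and 0 higher between the ages, with 2 lower and 8 higher at an unadjusted p under 0.05, where 1.84% and 1.62% of 9752 genes tested were called. With arrays scaled to the median 8 were higher. With the replicate number as a block, a pairing that these arrays followed only in part, Agps alone was lower (limma, adjusted p = 0.0194). In TgUmodC147W females 6 genes (15.8%) were higher and 1 (2.63%) lower at 2 months, where 6.19% and 6.92% of 10009 genes were. The 6 were the enzymes Ehhadh, Acot12, Cat, Pipox and Far1 and the peroxin Pex3. Without the array at background for Xist Pex3 was lost and Mpv17l gained.

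Ehhadh was 2.60-fold higher in mutant females of 2 months than of 1 month (limma, adjusted p = 0.017). The log2 difference was 1.38, or 1.11 without TgUmodC147W F2 replicate 2 (limma, adjusted p = 0.0296). The call was lost with a trended and robust variance prior (limma, adjusted p = 0.0536). Acot12 was 2.12-fold higher (limma, adjusted p = 0.00396). The ages did not overlap in either gene, as the values above show. In control females the same genes differed by log2 values of 0.43 and 0.17, without being called (limma, adjusted p = 0.107 for Ehhadh). Cat was 1.43-fold higher in mutant females (limma, adjusted p = 0.0115), a call lost with the mean of its probes (adjusted p = 0.102). Agps was lower in both genotypes at 2 months. It measured 11.20, 10.95, 11.12 and 11.59 in control and 11.38, 11.15, 11.28 and 11.18 in mutant females, a log2 difference from 1 month of -0.52 in control (limma, adjusted p = 0.124) and -0.70 in mutant mice (adjusted p = 0.00194). Only in the mutant mice were the ages without overlap.

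Whether the genotype difference itself changed with age was tested as an interaction over the 16 female arrays. The test called 1 peroxisomal gene, Acot12, for which the difference was smaller by 0.92 ± 0.22 SE on the log2 scale at 2 months (limma, adjusted p = 0.0462), and 0 in the other direction (1 at an unadjusted p under 0.05). Of 10145 genes, 0.808% had a positive and 0.493% a negative interaction. The Acot12 call rests near the threshold, with adjusted p up to 0.104 under the alternatives, among them 0.0547 with a replicate block and 0.0904 without the array at background for Xist. For Ehhadh the interaction was 0.95 ± 0.37 SE (limma, adjusted p = 0.258) and for Pipox 0.59 ± 0.14 SE (adjusted p = 0.0551). For the other genes no change of the genotype difference with age was called.

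Levels also differed between control males and control females of 1 month, a comparison that shares the control males with the genotype comparison of males. Of 39 peroxisomal genes 13 (33.3%) were higher and 2 (5.13%) lower in males, where 11.6% and 15.2% of 9700 genes tested were. The 13 were 11 enzymes, Mpv17l and Pex2. Without Amacr, which was detected in control males alone and so had to be higher, 12 of 38 (31.6%) were higher, 10 of them enzymes. Nudt19 was 3.43-fold higher in males (limma, adjusted p = 1.51e-06). Acox3, Agps, Acot12 and Pecr were 1.81-, 1.78-, 1.76- and 1.76-fold higher (limma, adjusted p = 2.71e-05, 0.00135, 0.000467 and 0.00118). Far1, Nudt12 and Pipox were 1.60-, 1.49- and 1.44-fold higher (limma, adjusted p = 0.00113, 0.0005 and 0.000744). Hacl1 was 3.13-fold lower in males and Acaa1b 1.31-fold lower (limma, adjusted p = 2.87e-05 and 0.016). The call of Acaa1b was lost with 1 fit over 24 arrays and without control male replicate 1 or 4 (adjusted p = 0.0691, 0.0511 and 0.0503). For Acaa1b the control males measured 13.53, 13.77, 13.80 and 13.55 and the mutant males 13.68, 13.87, 13.96 and 13.52, with overlap.

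Set side by side, the group means give the order of the levels. For Nudt19 the mean was 14.71 ± 0.17 in control males, 12.73 ± 0.22 in mutant males, 12.94 ± 0.16 in control females and 12.60 ± 0.41 in mutant females of 1 month (SD, n = 4 each). The control males stand alone, and the other 3 groups overlap. Acox3 was 12.08 ± 0.10, 11.03 ± 0.33, 11.22 ± 0.06 and 10.78 ± 0.06 in the same order, and Nudt12 9.75 ± 0.07, 8.86 ± 0.16, 9.18 ± 0.11 and 9.02 ± 0.12. Here again the control males lay highest and the mutant males overlapped or lay under the control females. For Acot12 the means were 11.04 ± 0.22, 8.96 ± 0.26, 10.22 ± 0.12 and 8.55 ± 0.37. Every mutant male lay below every control female in that gene. For Hacl1 the means were 8.18 ± 0.22, 9.13 ± 0.21, 9.83 ± 0.29 and 8.97 ± 0.23. Its control groups lay farthest apart, with both mutant groups between them and overlapping.

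**Figure D3:**
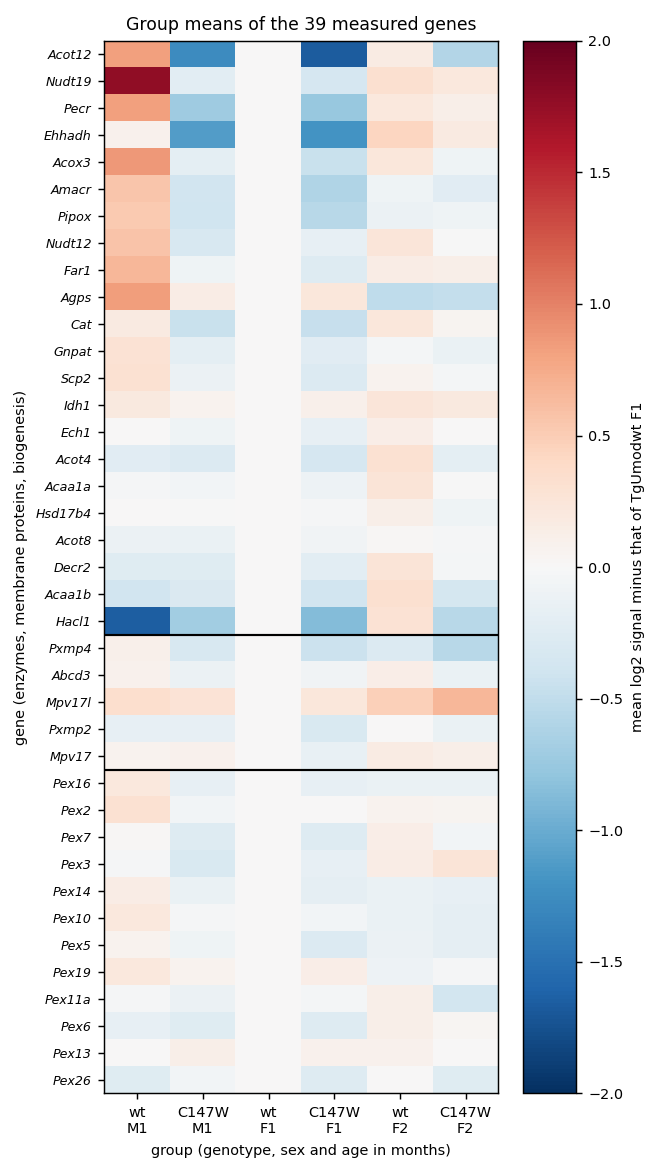
Mean log2 signal of the 39 measured peroxisomal genes (rows) in the 6 groups (columns), drawn as the difference from TgUmodwt females of 1 month (colour scale in log2 units, red higher, blue lower; n = 4 mice per group; the column of reference is 0). Nudt19, Acox3, Agps, Acot12, Pecr and Far1 are red in the control males, and Hacl1 is blue there. Amacr was detected on 3 of 24 arrays, so that its colours in other groups are near background.

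The interaction of genotype with sex at 1 month, over 16 arrays, called 5 peroxisomal genes with a more negative genotype difference in males (12.8%) and 1 with a more positive one (2.56%), where 3.74% and 3.95% of 10274 genes were. All 6 were enzymes, and without Amacr, which was not called, the shares are 13.2% and 2.63% of 38. The difference between the sexes was -1.65 ± 0.24 SE for Nudt19, -0.90 ± 0.19 for Agps and -0.73 ± 0.13 for Nudt12 (limma, adjusted p = 0.00037, 0.0086 and 0.00233). It was -0.61 ± 0.17 for Acox3 and -0.36 ± 0.11 for Pipox (limma, adjusted p = 0.0399 and 0.0494). Both calls rest near the threshold, and the count of negative interactions was 3 to 5 when 1 array was left out. Acox3 lost its call without any single array other than TgUmodC147W M1 replicate 3 and the array at background for Xist. It also lost the call with scaling to the median or no filter (limma, adjusted p = 0.0658 and 0.069). Without the array at background for Xist Acox3 kept its call (limma, adjusted p = 0.0477) and Pipox lost it (adjusted p = 0.0813). The difference between the sexes was 1.80 ± 0.22 for Hacl1 (limma, adjusted p = 6.67e-05, and 0.000181 without that array). Hacl1 was the 1 gene of the 39 called lower in mutant females and higher in mutant males of 1 month. Acot12 and Ehhadh were lower in mutants of both sexes, with interactions of -0.40 and 0.00 that were not called.

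Promoter windows of 3 of these genes are shown because their genotype differences had the 3 patterns described, lower in every comparison (Acot12), lower in males alone among the calls (Nudt19) and opposite in the sexes (Hacl1). Each runs from 250 bases before to 50 after the transcription start of RefSeq, build GRCm38.p6, 5′ to 3′ on the strand of the gene, and capitals mark the core motif AGGTCA of nuclear receptors or its complement. The windows lie at chr13:91741271-91741570, plus strand; chr7:35555879-35556178, minus strand; and chr14:31640916-31641215, minus strand.
Acot12: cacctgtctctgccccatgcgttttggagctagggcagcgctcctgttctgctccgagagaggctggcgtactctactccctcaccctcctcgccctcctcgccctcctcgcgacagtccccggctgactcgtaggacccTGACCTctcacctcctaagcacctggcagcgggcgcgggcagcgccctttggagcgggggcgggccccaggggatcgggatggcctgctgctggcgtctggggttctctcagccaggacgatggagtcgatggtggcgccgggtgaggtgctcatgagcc
Nudt19: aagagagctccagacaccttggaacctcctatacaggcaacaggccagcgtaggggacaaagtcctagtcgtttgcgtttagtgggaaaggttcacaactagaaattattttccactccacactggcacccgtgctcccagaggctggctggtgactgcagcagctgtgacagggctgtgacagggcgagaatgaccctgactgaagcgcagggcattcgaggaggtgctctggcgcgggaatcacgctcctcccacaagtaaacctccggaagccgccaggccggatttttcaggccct
Hacl1: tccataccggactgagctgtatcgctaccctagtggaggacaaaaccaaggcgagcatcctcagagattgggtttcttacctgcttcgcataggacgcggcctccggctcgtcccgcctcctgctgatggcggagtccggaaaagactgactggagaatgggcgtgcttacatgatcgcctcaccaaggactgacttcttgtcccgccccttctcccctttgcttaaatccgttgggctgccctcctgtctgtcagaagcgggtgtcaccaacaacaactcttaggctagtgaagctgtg
The Acot12 window held 1 match and the others 0. Windows were given for 35 of the 43 genes, and 5 of them (14.3%) held the core motif on either strand, Acot12, Acot4, Cat, Phyh and Scp2, against 18.1% of 27025 genes. The repeat to which PPAR-alpha, a receptor that regulates peroxisomal enzymes, binds with its partner was searched on both strands as AGGNCANAGGNCA, which contains the core motif in some forms. It was in 0 of the 35 windows and in 0.451% of all genes. A match is a description of the letters, and these windows leave out more distant sequence.

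Further peroxisomal genes from a separate list of 39, of which 27 were expressed, were counted in the same fits. In males 12 were lower (44.4%) and 4 higher (14.8%), against 15.4% and 21.9% of all genes tested. In females of 1 month 8 were lower (29.6%) and 0 higher, against 7.62% and 10.4%, and 7 were lower without the array at background for Xist. In females of 2 months 2 of 26 were lower (7.69%) and 0 higher, against 3.05% and 5.42%. Ephx2, an epoxide hydrolase, was 2.68-fold lower in males and 1.57-fold lower in females of 1 month (limma, adjusted p = 1.79e-06 and 0.00915; in F1 without that array 0.0233). Slc25a17, a cofactor carrier of the peroxisomal membrane, had log2 fold changes of -1.24, -1.44 and -1.64 in M1, F1 and F2 (-1.43 in F1 without that array), larger than those of any of the 5 membrane proteins above. Baat, which conjugates bile acids, was 2.01-fold higher in males (limma, adjusted p = 0.00044). Hao2, a hydroxy acid oxidase, was 2.36-fold lower in control males than in control females (limma, adjusted p = 1.73e-06). It was 1.87-fold lower in mutant than in control females of 1 month and 1.34-fold higher in mutant than in control males (limma, adjusted p = 0.000708 and 0.0177; in females without that array 0.00222), the value in males being chosen after it was seen. Acot3, a thioesterase, was 2.72-fold lower in control males than in control females and 1.84-fold lower in mutant females of 2 months (limma, adjusted p = 6.99e-06 and 0.00228). Values chosen after they were seen are that it was 1.43-fold lower in mutant females of 1 month (limma, adjusted p = 0.00755; without that array 0.0259) and 1.89-fold higher in mutant males (adjusted p = 6.26e-05). Of 3 expressed genes of peroxisome division, no gene was called in M1, F1 or F2.

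PPAR-alpha is the receptor best known for inducing peroxisomal beta-oxidation. Of 10 expressed genes of its axis 3 were lower and 2 higher in males, 2 lower and 1 higher in females of 1 month, and 4 lower and 0 higher in females of 2 months. All genes were called lower and higher at 15.4% and 21.9% in M1, 7.62% and 10.4% in F1, and 3.05% and 5.42% in F2. The F1 counts were the same without the array at background for Xist. Ppara itself, named here after its values were seen, was 1.52-, 1.44- and 1.35-fold lower in M1, F1 and F2 (limma, adjusted p = 0.00047, 0.0161 and 0.0396; in F1 without that array 0.0351), from control means of 8.63, 8.26 and 8.75. Cyp4a14, a fatty acid hydroxylase and known target, moved in different directions. It was 7.93-fold higher in mutant males (means 10.56 and 13.55, limma, adjusted p = 6.69e-09) and 1.75-fold lower in mutant females of 2 months (adjusted p = 0.00487), and in control males it was 8.04-fold lower than in control females (adjusted p = 1.36e-09). Acadm, a mitochondrial dehydrogenase of fatty acids, was 1.56-fold lower in both M1 and F1 (limma, adjusted p = 8.66e-05 and 0.0107; in F1 without that array 0.0351).

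Markers of cell types moved along with these differences, and their part in the result was not tested. Of the 16 proximal tubule genes 4 were lower and 0 higher in males, 4 lower and 1 higher of 15 in females of 1 month, and 3 lower of 15 in females of 2 months, where 15.4%, 7.62% and 3.05% of all genes were called lower and 21.9%, 10.4% and 5.42% higher. Without the array at background for Xist 2 were lower and 0 higher in F1. With arrays scaled to the median the lower ones were 4, 7 and 6. Their summed linear signal ranged from 273696 to 288597 in control and from 251673 to 254843 in mutant males, without overlap. In females of 1 month it ranged from 261302 to 284980 and from 233891 to 253745, again without overlap. The lowest of these sums came from the array at background for Xist, the next being 241968. In females of 2 months the sum ranged from 274134 to 293400 and from 260253 to 283611, where the groups overlapped. Slc7a13, an amino acid transporter of the last proximal segment, was 4.20-fold lower in mutant males (limma, adjusted p = 2.99e-06). It is 1 of the 4 called lower there, and the median log2 fold change of the 16 was -0.10. Slc7a13 was also called higher in control males than in control females, and its genotype difference was called more negative in males. TAL markers were higher in 6 of 8 cases in males and 2 of 8 in either female comparison (1 of 8 in F2 with arrays scaled to the median, and 1 of 8 in F1 without the array at background for Xist). Their summed signals were 117934 to 126028 in control and 141620 to 155421 in mutant males. In females the groups overlapped, at 139014 to 144891 against 144450 to 157266 in F1 and 138106 to 151880 against 145047 to 161840 in F2. Between control males and control females 5 of 8 were called lower in males, where 15.2% of all genes were.

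Macrophage markers were higher in 9 of 10, 9 of 10 and 8 of 9 cases in M1, F1 and F2, and fibroblast markers in 9 of 9, 6 of 9 and 7 of 8, where 21.9%, 10.4% and 5.42% of all genes were higher. In F1 they were 8 of 10 and 5 of 9 without the array at background for Xist. The summed macrophage signal was 2353 to 3410 in control and 4400 to 7174 in mutant males, 2802 to 3345 and 5474 to 10606 in females of 1 month, and 2803 to 3376 and 8101 to 9119 in females of 2 months. It was thus higher in every mutant than in every matched control kidney. In F1 the highest macrophage and fibroblast sums were those of the array at background for Xist, the next being 7188 and 29873. Fibroblast sums were 11399 to 12816 against 21763 to 27995 in M1, 15109 to 16615 against 23510 to 32463 in F1, and 11367 to 13853 against 17677 to 20509 in F2.

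**Figure D4:**
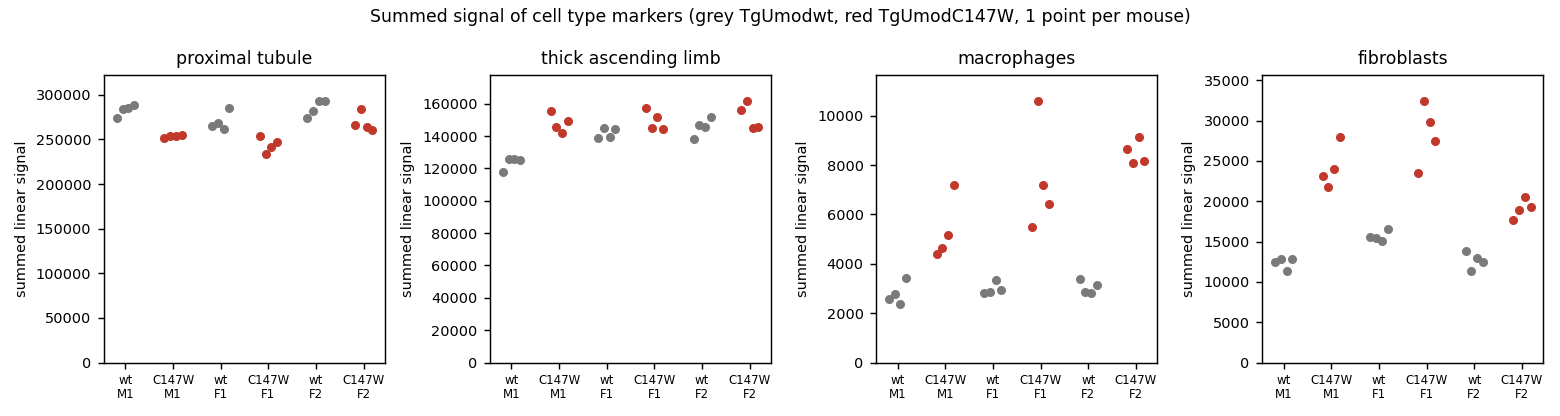
Summed linear signal (vertical axes, starting at 0) of the expressed markers of the proximal tubule, thick ascending limb, macrophages and fibroblasts in each of 24 kidneys, by group (horizontal axes), with 1 point per mouse, grey for TgUmodwt and red for TgUmodC147W. Proximal tubule sums are lower in mutant than in control males (251673 to 254843 against 273696 to 288597). They are also lower in mutant females of 1 month (233891 to 253745 against 261302 to 284980). Macrophage and fibroblast sums are higher in all mutant kidneys than in their matched controls.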

How the data were processed

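Whole-kidney RNA was labelled and read on bead arrays by the authors, whose deposited non-normalized table holds 1 probe intensity per array, linear and not background-subtracted, with a detection p-value from the array's negative controls. Their deposited value table holds intensities normalized by cubic spline. The 45281 probes of both tables were matched by rank, and names were used where the IDs of both tables gave 1 gene (34043 probes). Deposited intensities were corrected with the detection p-values, offset by 16, quantile normalized and put on the log2 scale (neqc, limma 3.58.1, R 4.3.3). limma models were fitted to the 8 arrays of a comparison, or 16 for an interaction, for probes with a detection p under 0.01 on 1 or more of those arrays, and all p were adjusted together (Benjamini-Hochberg). Steps were tested on simulated data.

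The genes and lists were chosen with earlier results of these data known. Values in every array are given for genes called in all 3 genotype comparisons, the 3 largest calls per direction of each comparison, and Acox3 and Ehhadh; others follow by counts and folds. Replicate numbers paired TgUmodwt F1 with F2 only in part (same-number correlations 0.12 to 0.36), since F1 replicate 2 was closest to F2 replicate 1. They did not pair the other groups. The alternatives were other sources of values, background corrections, scalings, offsets, filters, fits, probe rules and names, a replicate block, and leaving out each array. Counts without Amacr, and those of the other lists without the array at background for Xist, were added after seeing the data. Python 3.11.15, pandas 2.3.3 and matplotlib 3.10.9 were used, with statmod 1.5.0. Protein sequences were not used here.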

Additional observations from a re-analysis of the deposited data

Results flagged for a closer look

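In 66 groups of 4 arrays, those of the 11 genes given with a value in every array, 5 held 1 array far from the other 3 by Dixon's criterion, and chance gives about 1 in 20. Pecr, the enoyl-CoA reductase, had 2 of them, a control male at 10.72 (replicate 2, nearest 10.91) and a mutant male at 8.69 (replicate 3, nearest 9.54). Nudt19 had a TgUmodC147W female of 1 month at 13.22 (replicate 4, nearest 12.48), above all control females of that age. Nudt12 had a control male at 9.85 (replicate 2, nearest 9.73) and Cat a mutant male at 11.95 (replicate 3, nearest 11.84), both gaps of little size.

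Genotype differences that themselves differed between groups, by an interaction in limma, were found for 7 peroxisomal genes. Between the sexes at 1 month the difference in males minus that in females was 1.80 for Hacl1, -1.65 for Nudt19, -0.90 for Agps, -0.73 for Nudt12, -0.61 for Acox3 and -0.36 for Pipox on the log2 scale, the adjusted p of the last 2 being 0.0399 and 0.0494. Between the ages in females the difference at 2 months minus that at 1 month was 0.92 for Acot12 (adjusted p = 0.0462).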

How the results depend on the processing

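The precision is limited by 4 arrays per group, and probes near background, such as that of Amacr, give bounds. The value table of the authors, no background correction, scaling to the median and a trended and robust prior each called 7 peroxisomal genes lower in F2 in place of 4. In TgUmodwt females with age, 8 were higher after scaling to the median, 1 with any probe, the authors' value table, no background correction, an offset of 50, 1 fit over 24 arrays or the trended prior, and 1 was lower with the fit over 24 arrays. In TgUmodC147W females with age, 10 were higher without background correction, 11 after scaling to the median and 12 with the fit over 24 arrays, in place of 6, and 2 were lower with any probe or the fit over 24 arrays. Between control males and females 1 was lower with the fit over 24 arrays and 4 with the trended prior, in place of 2. Scaling to the median called 2 higher in M1 and 3 with a negative interaction of genotype and sex, and the trended prior 2 with a positive one. Any probe called 1 higher in F2 (Mpv17l). The positive interaction of genotype with age had 2 genes with the authors' value table, no background correction, an offset of 50, the fit over 24 arrays or the trended prior, and 0 after scaling to the median or with no filter.

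With the replicate number as a block, 1 gene was lower with age in TgUmodwt females in place of 0, and the positive interaction of genotype with age fell from 1 to 0. The block also ended the calls of Acot4 in F1, Far1 and Pex3 with age in TgUmodC147W females, and Pipox between the sexes (adjusted p = 0.0793, 0.0584, 0.0621 and 0.0746), and changed no other call. In the genotype comparisons the numbers did not pair the samples.

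Leaving out 1 array at a time gave 17 to 22 genes lower in M1, 5 to 11 in F1 (11 without TgUmodC147W replicate 4) and 2 to 5 in F2, 1 to 3 lower in control males than females, 0 to 3 with a positive interaction with age (3 without TgUmodC147W F1 replicate 4), and 3 to 5 negative and 1 to 2 positive interactions with sex. Single-gene results were followed only for the 11 genes given with a value in every array, chosen mostly as the largest calls. They made 39 results, each for 1 gene in 1 comparison, which are not the 39 measured genes. Of these results 29 kept direction and call under every alternative run. Of their 867 values under alternatives 806 kept both, 60 lost the call and 1, Ehhadh in F2 without mutant replicate 2, gained it, with no reversal. The cause of these shifts was not tested. The share of proteins ending in an import signal was not run.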

Other observations

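Several peroxisomal genes had more than 1 expressed probe, and for some the dimmer probes gave another call than the brightest one. Abcd3, the fatty acyl-CoA transporter, was not called in males by its brightest probe (log2 fold change -0.19), while 2 dimmer probes gave -0.37 and -0.55 (limma, adjusted p = 0.0129 and 0.00606). Pex13, a docking peroxin, gave 0.12 by its brightest and -0.40 by its other probe in males (limma, adjusted p = 0.25 and 0.0189). Dimmer probes of the import receptor Pex5 and of Pex6, which recycles it, were lower in females of 1 month, with log2 fold changes of -0.33 and -0.50 (limma, adjusted p = 0.0318 and 0.0317), where their brightest probes gave -0.28 and -0.26. A dim Cat probe gave -0.54 in females of 2 months (limma, adjusted p = 0.0417) against -0.17 by the bright one. Counting a gene by any of its probes gave 23 peroxisomal genes lower in males in place of 19.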
